A study of Homo sapiens with 6 samples.

Results

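Fibronectin and the matricellular glycoproteins were examined in OVCAR-3 ovarian cancer cells with and without knockdown of COX-1. The 10 genes were chosen by name, with earlier results of these data known: FN1, TNC, THBS1, THBS2, THBS3, SPARC, SPP1, VCAN, POSTN and TGFBI. Of these, 9 were among the 34811 genes of the count table and 8 passed the filter on low counts, TGFBI being the one that did not, and the expression of POSTN was not analysed here. In OV3/COX1KD cells FN1, SPP1 and VCAN fell by more than 2.5-fold, THBS1 and TNC fell by less, and THBS3 rose. SPARC and THBS2 were scarce and did not pass the test.

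Fibronectin is a large secreted glycoprotein that cells assemble through integrins into fibrils, on which other matrix proteins and growth factors are deposited. Matricellular proteins such as the thrombospondins, tenascin-C, osteopontin and SPARC are secreted into the same matrix, where they adjust contact between cells and matrix and growth factor activity rather than bear load. In serous ovarian cancer these proteins are best known from the stroma and from the peritoneal surfaces to which tumor cells attach.

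OVCAR-3 is an established human ovarian carcinoma line. OV3/COX1KD cells carried a pRS HuSH-29 plasmid with an shRNA against COX-1, OV3/SCR cells the same plasmid with a scrambled shRNA, and both were stable, puromycin-selected transfectants grown in serum-containing RPMI-1640. RNA-seq covered 3 libraries of each, which came from separate passages of a single clone, clone 2 for OV3/COX1KD and clone 1 for OV3/SCR. With 1 clone per condition, the knockdown and the difference between clones cannot be told apart, and the replicate error below is that between passages. All values are of RNA from whole cultures, in which fewer expressing cells and less RNA per cell cannot be told apart.

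Between 25291505 and 27391538 reads were counted on genes in each library, so that 3 counts, the floor used here, stood for 0.113 to 0.120 CPM (counts over the TMM-scaled library size). Floors of this kind take in the error of counting and no other error. The conditions were compared with the quasi-likelihood test of edgeR on the 17309 genes that passed the filter, with the FDR by Benjamini-Hochberg adjustment and a limit of 0.01, the limit of the study. At that limit 4473 genes were higher and 3820 lower in OV3/COX1KD, a split that became 3466 higher and 4978 lower when libraries were scaled by total counts alone. Among libraries of the same condition OV3/COX1KD replicate 2 stood apart, since its counts gave a chi-square of 4.83 and 6.31 per degree of freedom against replicates 1 and 3, which gave 1.89 against each other. Without it 4852 genes were higher and 4137 lower, and of the fibronectin and matricellular genes 1 was higher and 5 were lower, the same numbers as with it. The targeted gene, PTGS1, had 713, 658 and 641 counts in OV3/SCR and 456, 486 and 501 in OV3/COX1KD (log2 fold change -0.45, standard error 0.057, edgeR FDR = 1.3e-06). Of 11 markers of serous ovarian epithelium, all 11 passed the filter. In OV3/COX1KD 8 of them were higher and 3 lower, against 25.8% and 22.1% of all genes tested. EPCAM and MUC16 were among the 8. The 3 lower were KRT7, WFDC2 and PAX8, the last from 756 ± 18.6 to 447 ± 23.7 CPM (SD, n = 3 each; log2 fold change -0.76, edgeR FDR = 4.3e-13). The summed level of the 11 was between 6680 and 6716 CPM in OV3/SCR and between 8805 and 9033 in OV3/COX1KD.

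Of the 8 tested genes, 5 were lower and 1 was higher in OV3/COX1KD at an FDR under 0.01. Over all genes tested 22.1% were called lower, 25.8% higher and 47.9% in either direction. The study also asked for a fold change above 2.5, and by this rule 3 of the 8 were called, all lower, against 2.34% of all genes lower and 3.92% in either direction. The 8 genes were chosen with earlier results of these data known, so these shares are description and do not test the set. SPARC reached the level of the filter, 0.389 CPM by total counts, only in its OV3/SCR libraries, and the other 7 genes reached it in all 6, a split made after the data were seen. Over these 7 genes the median log2 fold change was -0.41, against 0.010 over the 15430 genes that reached the level in all libraries, while with SPARC it was -0.79. In 5 of the 7 genes every OV3/COX1KD library lay below every OV3/SCR library and in 1 every library lay above. Of the 15430 genes that reached the level in all libraries, 4746 lay below in this way and 5395 above. Among all 17309 genes tested 30.7% lay below, 32.5% above and 63.2% in either direction.

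**Figure D1:**
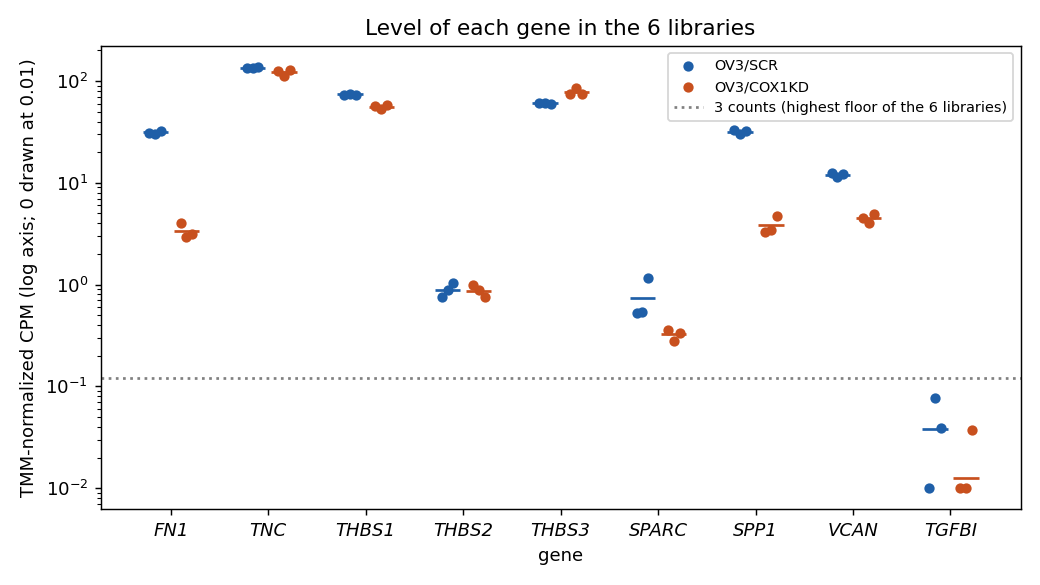
Level of each of the 9 measured genes (x axis) in the 6 libraries as TMM-normalized CPM (y axis, log scale), with a point per library, a bar at the mean of each condition and a dotted line at the highest floor of 3 counts; a level of 0 is drawn at 0.01. FN1, SPP1 and VCAN are far lower in the OV3/COX1KD libraries, THBS3 is higher, THBS2 overlaps, and TGFBI lies below the floor throughout.

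FN1 (ENSG00000115414, chromosome 2 of GRCh37 from 216225163 to 216300796) encodes fibronectin itself. Its counts were 831, 793 and 832 in OV3/SCR and 102, 73 and 84 in OV3/COX1KD. In CPM these were 31.2, 30.4 and 32.2 against 4.05, 2.91 and 3.15. The lowest OV3/SCR library was thus far above the highest OV3/COX1KD library. The mean level fell 9.27-fold, from 31.3 ± 0.880 to 3.37 ± 0.601 CPM (SD, n = 3 each; log2 fold change -3.21, 95% interval -3.39 to -3.03, edgeR FDR = 1.7e-16). FN1 had the 26th lowest log2 fold change of the 17309 genes tested. No exon of another annotated gene overlapped those of FN1. Gene-level counts hold all splice forms together, so forms with or without the alternatively spliced fibronectin domains were not measured apart.

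SPP1 (ENSG00000118785, chromosome 4 from 88896819 to 88904684) encodes osteopontin, a secreted phosphoprotein bound by integrins and CD44. It had 871, 789 and 829 counts in OV3/SCR and 82, 86 and 127 in OV3/COX1KD. In CPM the OV3/SCR libraries had 32.7, 30.3 and 32.1, and the OV3/COX1KD libraries 3.26, 3.43 and 4.77. The conditions did not overlap, and OV3/COX1KD replicate 3 was the highest of the low group. The mean fell from 31.7 ± 1.25 (SD, n = 3) to 3.82 ± 0.825 CPM (SD, n = 3), or 8.25-fold (log2 fold change -3.04, 95% interval -3.24 to -2.85, edgeR FDR = 9.3e-16). SPP1 was 36th from the lowest among all genes tested, and its interval overlapped that of FN1.

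VCAN (ENSG00000038427, chromosome 5 from 82767437 to 82878122) encodes versican, a large chondroitin sulfate proteoglycan that binds hyaluronan. Its counts were 332, 299 and 314 in OV3/SCR and 114, 102 and 131 in OV3/COX1KD. The corresponding levels were 12.5, 11.5 and 12.1 CPM against 4.53, 4.07 and 4.92 CPM. Every OV3/COX1KD library lay below every OV3/SCR library. The fold change was 2.66 (log2 fold change -1.41, 95% interval -1.61 to -1.22, edgeR FDR = 1.3e-10), just past the limit of 2.5-fold, and the interval held that limit, which is 1.32 on the log2 scale. When the test was made against a fold change of 2.5 with glmTreat, 2 of the 3 genes, FN1 and SPP1, remained past it.

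The 250 bases before the start site of these 3 genes are shown because they were the members past 2.5-fold. The windows were taken from RefSeq (GRCh38.p14), which held windows for all 10 genes, 11 in number since THBS3 had a pair. Capitals mark matches, on either strand, to the palindromic cAMP response element (CRE, TGACGTCA), the AP-1 element (TGANTCA, with N any base) and a TATA element (TATAA). No match of one pattern can share bases with a match of another, though TATAA can overlap its own reverse complement.
FN1, chr2:215436069-215436318, minus strand: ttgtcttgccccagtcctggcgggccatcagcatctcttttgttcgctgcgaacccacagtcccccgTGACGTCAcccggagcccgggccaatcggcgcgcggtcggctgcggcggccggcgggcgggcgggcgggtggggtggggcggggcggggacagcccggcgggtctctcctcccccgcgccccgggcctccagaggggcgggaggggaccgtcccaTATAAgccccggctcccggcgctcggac
SPP1, chr4:87975464-87975713, plus strand: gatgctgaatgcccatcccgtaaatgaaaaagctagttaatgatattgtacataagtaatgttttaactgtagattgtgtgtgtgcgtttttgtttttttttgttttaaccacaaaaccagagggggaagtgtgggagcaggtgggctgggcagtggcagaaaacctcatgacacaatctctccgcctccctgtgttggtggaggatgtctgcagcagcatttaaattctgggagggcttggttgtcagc
VCAN, chr5:83471494-83471743, plus strand: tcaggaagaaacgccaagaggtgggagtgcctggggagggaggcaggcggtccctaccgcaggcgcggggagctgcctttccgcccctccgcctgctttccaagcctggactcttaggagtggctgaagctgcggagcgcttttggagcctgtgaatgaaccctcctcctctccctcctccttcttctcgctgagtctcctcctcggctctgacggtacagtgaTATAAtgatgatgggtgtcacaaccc

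The FN1 window held 1 CRE, whose first base lay 183 bases before the start site, and a TATA element 28 bases before it. The VCAN window held a TATA element 26 bases before the start site, and the SPP1 window held none of the 3 patterns. Of the 11 windows, 1 held the CRE, against 1.65% of 35116 windows in the RefSeq table, and 5 held a TATA element, against 18.9%. The AP-1 element stood in 1 window, that of POSTN, against 6.57%. The TATA element lay 27 bases before the start in TNC and 29 in THBS2. POSTN had 4 matches to it, at 29, 141 and 180 bases and, on the other strand, at 181 bases. The windows of THBS1, THBS3, SPARC and TGFBI had none of these letters. A match describes the letters of the window only, and binding was not measured.

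**Figure D2:**
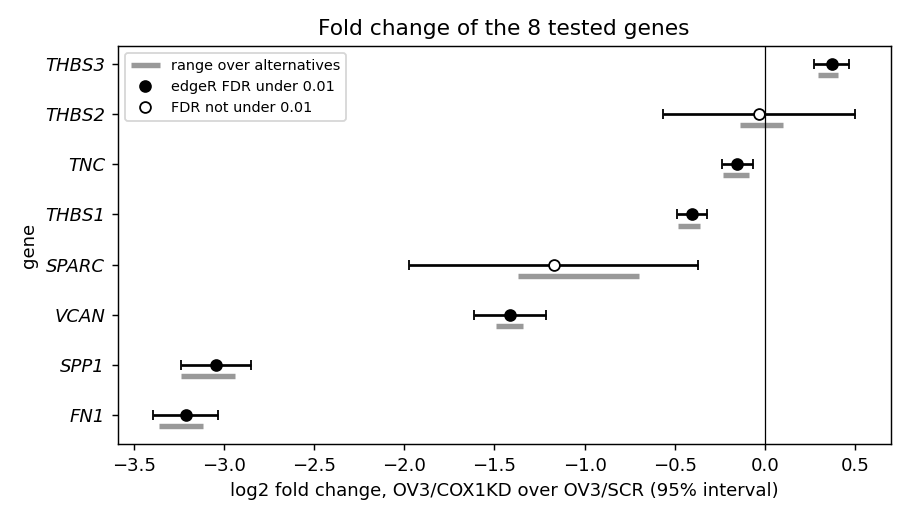
Log2 fold change of OV3/COX1KD over OV3/SCR (x axis) for the 8 tested genes (y axis), with 95% intervals, filled points for an edgeR FDR under 0.01 and a grey bar for the range over the other processing settings. FN1 and SPP1 lie near -3, VCAN near -1.41, and THBS3 is the one gene above 0 at that limit.

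The thrombospondins are secreted multimers that bind cell surface receptors such as CD47 and, for THBS1, activate latent TGF-β. Of the 3 described here 1 fell, 1 rose and 1 had no call. THBS1 (ENSG00000137801, chromosome 15 from 39873280 to 39891667) had 1959, 1945 and 1893 counts in OV3/SCR and 1418, 1323 and 1543 in OV3/COX1KD. It fell from 73.8 ± 0.751 to 55.7 ± 2.62 CPM (SD, n = 3 each), to 75.5% of the control level, with no overlap (log2 fold change -0.41, 95% interval -0.49 to -0.32, edgeR FDR = 4.6e-08).

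THBS3 (ENSG00000169231, chromosome 1 from 155165379 to 155178842), a pentameric thrombospondin, moved the other way. Its 1619, 1586 and 1551 counts in OV3/SCR compared with 1875, 2129 and 2004 in OV3/COX1KD. All OV3/COX1KD libraries were above all OV3/SCR libraries, at 78.2 ± 5.84 against 60.5 ± 0.467 CPM (SD, n = 3 each), a log2 fold change of 0.37 (95% interval 0.27 to 0.47, edgeR FDR = 9.3e-07). Exons of the antisense gene THBS3-AS1 covered 25.9% of the THBS3 exon length and those of MTX1 3.16%, and the libraries were counted with no stated use of strand. THBS3-AS1 had 73, 104 and 101 counts in OV3/SCR and 89, 109 and 86 in OV3/COX1KD. MTX1 had 1708, 1673 and 1705 against 1693, 1656 and 1721. Neither neighbor separated the conditions in its counts, and the part of overlapping reads in the THBS3 value was not tested.

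THBS2 (ENSG00000186340, chromosome 6 from 169615875 to 169654145) was scarce. It had 20, 23 and 27 counts in OV3/SCR and 25, 22 and 20 in OV3/COX1KD, so the conditions overlapped. Its log2 fold change of -0.031 (edgeR FDR = 0.924) had a 95% interval from -0.56 to 0.50 and changed sign on leaving out the third library of either condition (0.099 without that of OV3/SCR, 0.072 without that of OV3/COX1KD). A change in THBS2 within that interval was not detectable at this depth. THBS2-AS1, whose exons cover 31.2% of its exon length, had between 2 and 8 counts per library.

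TNC (ENSG00000041982, chromosome 9 from 117781854 to 117880486) encodes tenascin-C, a hexameric glycoprotein of wound and tumor matrix. It had the highest counts of the 9 genes, 3611, 3484 and 3549 in OV3/SCR and 3183, 2804 and 3380 in OV3/COX1KD. In CPM these were 135, 134 and 137 against 126, 112 and 127, with no overlap between conditions. The difference was small, to 89.9% of the control level (log2 fold change -0.15, 95% interval -0.24 to -0.068, edgeR FDR = 0.00329). When OV3/SCR replicate 1, 2 or 3 was left out the edgeR FDR was 0.0162, 0.0131 or 0.0272, past the limit of 0.01. Without OV3/COX1KD replicate 2, the lowest library, the log2 fold change was -0.090 (edgeR FDR = 0.0091).

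SPARC (ENSG00000113140, chromosome 5 from 151040657 to 151066536) encodes osteonectin, a collagen-binding matricellular protein. Its counts were 14, 14 and 30 in OV3/SCR and 9, 7 and 9 in OV3/COX1KD. The conditions did not overlap, but OV3/SCR replicate 3 had more counts than the other two of its group together. The log2 fold change of -1.17 (95% interval -1.97 to -0.37, edgeR FDR = 0.0130) did not pass an FDR of 0.01. Without OV3/SCR replicate 3 it was -0.70 (edgeR FDR = 0.144). The call depended on the setting, with an edgeR FDR of 0.00734 under total count scaling, 0.00526 with no filter on low counts and 0.00943 without OV3/SCR replicate 1.

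TGFBI (ENSG00000120708, chromosome 5 from 135364677 to 135399507) encodes a matrix protein induced by TGF-β in many cell types. It had 0, 2 and 1 counts in OV3/SCR and 0, 0 and 1 in OV3/COX1KD. No library exceeded the floor of 3 counts. A fold change is therefore not given, and a difference was not detectable at this depth. Without the filter on low counts its edgeR FDR was 0.605.

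**Figure D3:**
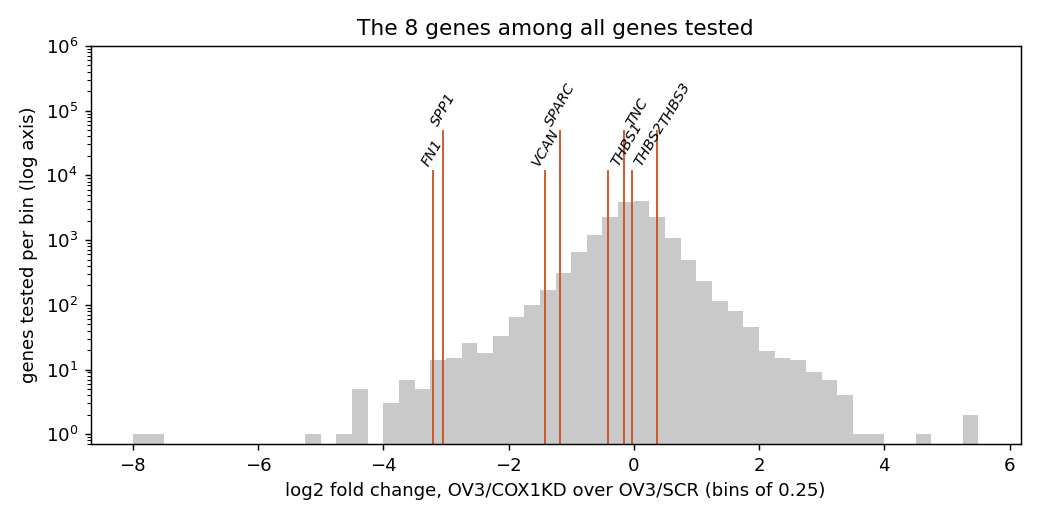
Histogram of the log2 fold change of OV3/COX1KD over OV3/SCR for all 17309 genes tested (x axis, bins of 0.25; y axis, genes per bin on a log scale), with a line at each of the 8 tested genes. FN1 and SPP1 lie in the far left tail, VCAN and SPARC on the left shoulder, and the other 4 in the body of the distribution.

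Levels can be compared between genes only per length, and here were taken as TPM from the counts and the summed exon length of each gene in GENCODE 44 lifted to GRCh37. In OV3/SCR, TNC stood first at 46.8 ± 1.42 TPM (SD, n = 3), then THBS3 at 43.4 ± 1.10, THBS1 at 26.7 ± 0.505, SPP1 at 14.5 ± 0.887, FN1 at 6.02 ± 0.244 and VCAN at 2.72 ± 0.174. SPARC at 0.529 ± 0.257 and THBS2 at 0.410 ± 0.0630 overlapped between libraries, while the other neighbors in this order did not, and TGFBI came last.

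In OV3/COX1KD the order changed. THBS3 led at 56.1 ± 3.08 TPM (SD, n = 3), above TNC at 42.2 ± 3.82 and THBS1 at 20.2 ± 1.41. SPP1 at 1.75 ± 0.414, VCAN at 1.02 ± 0.119 and FN1 at 0.651 ± 0.120 followed, so that FN1 stood below VCAN. THBS2 at 0.403 ± 0.0530 and SPARC at 0.233 ± 0.0330 came next, and no neighbors in this order overlapped between libraries down to SPARC. The order depends on the length used. With the length of the canonical transcript, an alternative added after the data were seen, SPP1 was first in OV3/SCR at 44.7 TPM, above THBS3 at 42.4 and TNC at 35.1, and in OV3/COX1KD FN1 at 0.842 TPM stayed above VCAN at 0.765. With the summed exon length, the level of the 9 genes together was 137 to 145 TPM in OV3/SCR and 120 to 126 TPM in OV3/COX1KD. This sum also depends on the length used. SPP1 in OV3/SCR, for example, was at 14.5 TPM with the summed exon length and at 44.7 TPM with the canonical transcript.

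**Figure D4:**
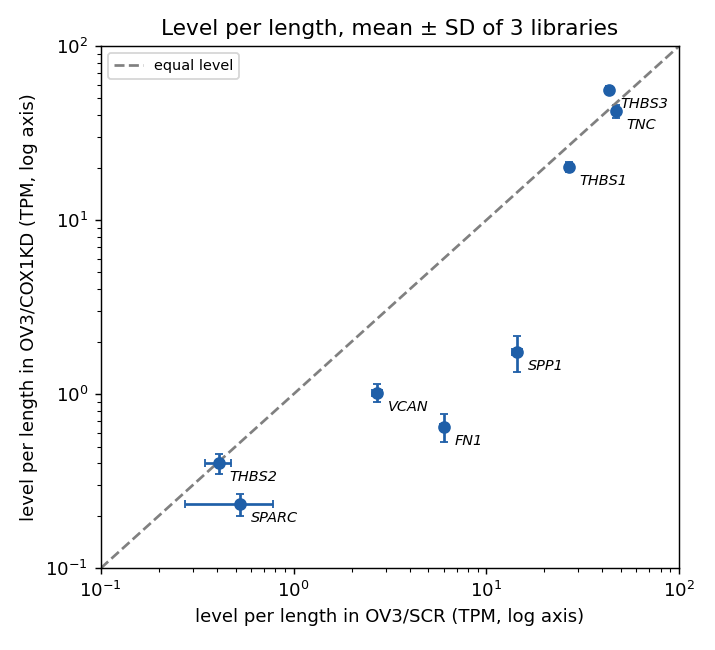
Level per exon length in OV3/SCR (x axis) against OV3/COX1KD (y axis), both in TPM on log axes, as mean ± SD of 3 libraries for 8 genes, with a dashed line of equal level. THBS3 lies above the line, TNC and THBS2 close to it, and FN1, SPP1 and VCAN well below it.

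Fibroblasts make much of the matrix of a tumor, and their markers are given beside these genes. Of 8 such markers, COL3A1 and LUM were at 0 in all OV3/SCR libraries, with 4 counts of COL3A1 and 1 of LUM in OV3/COX1KD replicate 3 alone. THY1 had at most 2 counts in any library. The summed level of the list lay between 11.3 and 12.0 CPM in OV3/SCR and between 6.87 and 7.54 CPM in OV3/COX1KD, most of it from COL1A1, which fell from 10.1 ± 0.232 to 5.93 ± 0.517 CPM (SD, n = 3 each; log2 fold change -0.77, edgeR FDR = 5.3e-07). COL1A2 had 17, 10 and 24 counts in OV3/SCR and 18, 4 and 13 in OV3/COX1KD. DCN had 7, 16 and 15 against 11, 14 and 12, and neither had a call. PDGFRA had 9, 5 and 8 against 1, 4 and 4, PDGFRB had 2, 3 and 3 against 6, 6 and 6, and both were below the filter. Of the 3 tested markers of this list 1 was lower and 0 were higher, against 22.1% and 25.8% of all genes tested. The part of these fibroblast transcripts in the results above was not tested. The measured endothelial markers, 4 in number, summed to between 2.92 and 4.05 CPM in OV3/SCR and between 3.91 and 4.73 in OV3/COX1KD. Of the 3 tested, 1 was higher, against 25.8% of all genes tested. It was TEK, with 22, 12 and 11 counts in OV3/SCR and 31, 26 and 30 in OV3/COX1KD (log2 fold change 0.98, edgeR FDR = 0.00584). The measured leukocyte markers, 5 in number, summed to between 1.24 and 1.54 CPM in OV3/SCR and between 0.676 and 1.28 in OV3/COX1KD.

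Receptors of these glycoproteins were taken from a list of 16 genes, of which 15 had a row and 14 were tested. Of those 14, 5 rose, 6 fell and 3 had no call, with a median log2 fold change of -0.017. ITGB3, the β3 chain that with αv binds the RGD site of fibronectin, osteopontin and thrombospondin, had 369, 341 and 327 counts in OV3/SCR and 105, 89 and 96 in OV3/COX1KD (log2 fold change -1.80, edgeR FDR = 3.8e-12). ITGB6, the β6 chain of an epithelial receptor for fibronectin and tenascin, fell from 27.8 ± 0.615 to 10.1 ± 0.980 CPM (SD, n = 3 each; log2 fold change -1.46, edgeR FDR = 5.3e-13). CD44, the hyaluronan receptor that also binds osteopontin, fell from 46.1 ± 1.39 to 22.8 ± 0.0759 CPM (SD, n = 3 each; log2 fold change -1.01, edgeR FDR = 6.3e-13). LRP1, an endocytic receptor that clears thrombospondins among many ligands, rose from 36.9 ± 2.24 to 82.7 ± 13.7 CPM (SD, n = 3 each; log2 fold change 1.17, edgeR FDR = 3.6e-10). These 4 were named for the size of their change and do not stand for the list. Its 5 higher and 6 lower of 14 compare with 25.8% higher and 22.1% lower over all genes tested.

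Of 16 proteases that cleave these proteins, 14 were tested. In OV3/COX1KD 3 were higher and 4 lower, against 25.8% and 22.1% of all genes tested. The median log2 fold change of the 14 was -0.23, or -0.082 without MMP7, which reached the level of the filter in OV3/SCR alone. The 3 that rose, ADAMTS5, ADAMTS15 and ADAMTS1, are known to cleave versican. Of the other versican-cleaving enzymes in the list, ADAMTS4 had a log2 fold change of -0.38 (edgeR FDR = 0.0910) and ADAMTS9 of 0.21 (edgeR FDR = 0.141). ADAMTS5 had 114, 82 and 89 counts in OV3/SCR and 808, 750 and 902 in OV3/COX1KD (log2 fold change 3.14, edgeR FDR = 3.8e-16). ADAMTS15 rose by 0.79 (edgeR FDR = 2.0e-13) and ADAMTS1 by 0.75 (edgeR FDR = 4.2e-14) on the log2 scale, from OV3/SCR levels of 192 ± 3.84 and 194 ± 0.463 CPM (SD, n = 3 each). MMP2, a gelatinase that also cleaves fibronectin, fell from 12.1 ± 0.619 to 4.58 ± 0.271 CPM (SD, n = 3 each; log2 fold change -1.40, edgeR FDR = 1.1e-10).

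Other matrix glycoproteins of the same families were listed as 26 genes, of which 24 had a row and 14 were tested. In OV3/COX1KD 7 of the 14 were higher and 5 lower, against 25.8% and 22.1% of all genes tested. The median log2 fold change of the 14 was 0.25. FBLN2 and WISP1 reached the level of the filter in OV3/COX1KD alone, and over the other 12 genes 5 were higher and 5 lower, with a median of -0.059. Of the 15430 genes that reached the level in all libraries, 4345 were higher and 3557 lower. The calcium-binding SPARC relatives SMOC1 and SMOC2 both rose. SMOC1 had 427, 454 and 472 counts in OV3/SCR and 1180, 1106 and 1233 in OV3/COX1KD (log2 fold change 1.41, edgeR FDR = 3.9e-14), and SMOC2 had 81, 67 and 79 against 156, 158 and 185 (log2 fold change 1.17, edgeR FDR = 8.3e-08). FBLN1, which encodes the fibronectin-binding fibulin-1, rose from 52.5 ± 0.562 to 115 ± 2.15 CPM (SD, n = 3 each; log2 fold change 1.13, edgeR FDR = 1.5e-15). NOV, a matricellular protein of the CCN family, fell from 7.09 ± 0.358 to 3.30 ± 0.112 CPM (SD, n = 3 each; log2 fold change -1.10, edgeR FDR = 4.7e-08).

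**Figure D5:**
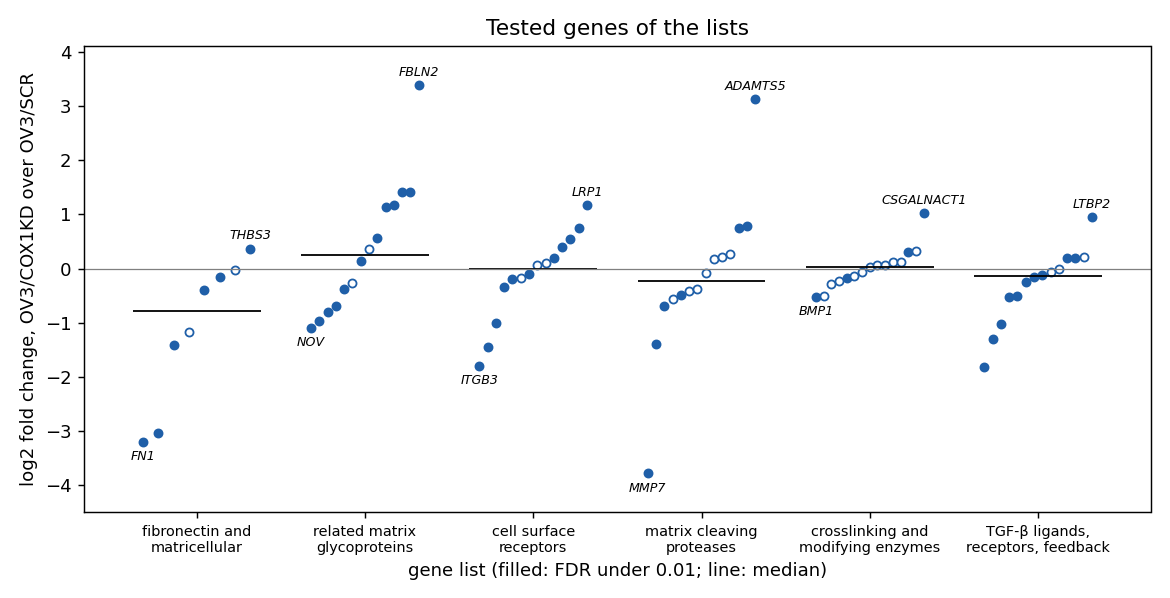
Log2 fold change of OV3/COX1KD over OV3/SCR (y axis) for the tested genes of 6 lists (x axis), with filled points for an edgeR FDR under 0.01, a line at each median and the lowest and highest gene named in the first 5 lists and the highest in the list of the TGF-β pathway. The medians drawn, -0.79 for the fibronectin and matricellular genes and -0.23 to 0.25 for the other 5 lists, include genes that reached the level of the filter in 1 condition alone (without them, -0.41 and -0.12 to 0.020).

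Extremes of the glycoprotein and protease lists in this plot, chosen here after their values were seen, were genes of low level that the rule for naming left out. FBLN2, which encodes fibulin-2, had 5, 3 and 4 counts in OV3/SCR and 51, 33 and 43 in OV3/COX1KD (log2 fold change 3.39). That fitted value depends on the prior count, since the OV3/SCR libraries lay near the floor. MMP7, the protease matrilysin, had 57, 38 and 37 against 2, 4 and 3 (log2 fold change -3.79, a fitted value that depends on the prior count, since the OV3/COX1KD libraries lay near the floor).

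Most enzymes that crosslink or modify these proteins had no call. Of 17 listed, 15 were tested, 2 were higher, 2 lower and 11 had no call, with a median log2 fold change of 0.020. Over all genes tested 25.8% were higher and 22.1% lower, or 47.9% in either direction. CSGALNACT1, which starts chondroitin chains such as those of versican, rose from 1.85 ± 0.175 to 3.74 ± 0.164 CPM (SD, n = 3 each; log2 fold change 1.02, edgeR FDR = 7.4e-06), and XYLT2, which attaches the first sugar of these chains, had a log2 fold change of 0.31 (edgeR FDR = 3.0e-05). BMP1, the procollagen C-proteinase, had a log2 fold change of -0.52 (edgeR FDR = 4.7e-09). CHST15, a chondroitin sulfotransferase, had a log2 fold change of -0.18 (edgeR FDR = 0.00567), which did not pass the limit without OV3/SCR replicate 2 (edgeR FDR = 0.0521) or replicate 3 (0.0364), without OV3/COX1KD replicate 1 (0.0113) or replicate 2 (0.0174), or by DESeq2 (adjusted p = 0.0110). The count of lower genes in this list was 5 under total count scaling.

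Genes of the TGF-β pathway, known to drive FN1, SPARC and TGFBI in other cells, were listed as 15, of which 14 were tested. In OV3/COX1KD 8 were lower and 3 higher, against 22.1% and 25.8% of all genes tested. The median log2 fold change of the list was -0.14, and under total count scaling only 1 of its genes was higher. SMAD7, the feedback inhibitor, fell from 37.1 ± 1.46 to 14.9 ± 2.06 CPM (SD, n = 3 each; log2 fold change -1.31, edgeR FDR = 5.7e-12). SKIL, a corepressor induced by the pathway, fell from 120 ± 3.36 to 58.9 ± 0.482 CPM (SD, n = 3 each; log2 fold change -1.03, edgeR FDR = 7.3e-15). SMAD3, a receptor-activated SMAD, had a log2 fold change of -0.52 (edgeR FDR = 1.9e-10). LTBP2, a latent TGF-β binding protein family member of elastic fibres, had 1015, 947 and 945 counts in OV3/SCR and 1889, 1646 and 1960 in OV3/COX1KD (log2 fold change 0.95, edgeR FDR = 3.0e-12).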

How the data were processed

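RNA-seq was performed on 3 OV3/SCR and 3 OV3/COX1KD libraries. Reads were aligned by the authors to hg19 using TopHat2 (2.0 in the submitters' processing notes), and HTSeq gave the deposited counts per gene, which are not normalized. The annotation and strand setting are not given in the sources used here. Here counts were analysed with edgeR 4.0.16 in R 4.3.3 by filterByExpr, TMM factors, glmQLFit and glmQLFTest, with condition as the only factor. A standard error is the log2 fold change over the square root of F. CPM and TPM were computed from the counts, and exon overlaps and lengths came from GENCODE 44 lifted to GRCh37. The members and gene lists were chosen with earlier results of these data known. From each list the 4 largest log2 fold changes with an FDR under 0.01 and a mean log2 CPM of at least 1 are named. Alternatives were RLE and total count scaling, other filters, DESeq2 1.42.0, a replicate block, glmTreat and leaving out each library. Protein sequences were not analysed here. The test was checked on simulated counts.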

Additional observations from a re-analysis of the deposited data

How the results depend on the processing

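Of 29 named genes tested, 27 of them called, 28 kept their direction under every alternative, THBS2 being the exception, and 26 kept their side of an FDR of 0.01, the exceptions being TNC, SPARC and CHST15. The log2 fold change of THBS2 ranged from -0.14 to 0.10 when each library was left out. The number of the 8 genes called lower was 5, or 6 with total count scaling, with the filter on low counts removed or with the replicate block, in each of which SPARC passed. It was 4 to 5 with a library left out, and 1 gene was higher throughout. The number past 2.5-fold was 4, with SPARC, without OV3/SCR replicate 1 and 2 by glmTreat. Among crosslinking and modifying enzymes the count called lower was 5 with total count scaling, 1 with DESeq2 and 1 to 3 with a library left out, against 2. Total count scaling left 1 TGF-β gene higher, against 3. The cause of these shifts was not tested. Under the replicate block 4437 genes were higher and 3796 lower, FN1 had a log2 fold change of -3.21 and SPARC an FDR of 0.00974. The labels speak of replicate pairs but do not say that the replicate number marks a pair. Same-numbered libraries deviated from their condition means with correlations of 0.0045, 0.042 and 0.0090 across genes. Differently numbered libraries gave correlations from -0.027 to 0.018. All were weak, and they do not decide whether the numbers mark a pairing. With at least 10 counts in every library SPARC was not tested. Counts near 3 per library, as for TGFBI, limit what can be detected.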
